A study of Mus musculus with 43 samples.

Results

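The nuclear-encoded respiratory chain genes were taken as the subunit genes of complexes I to IV and ATP synthase whose mouse symbols begin with Nduf and a subunit letter (a, b, c, s or v) and number, Uqcr, Cox4 to Cox8 or Atp5, or are Sdha, Sdhb, Sdhc or Sdhd. Of 53379 genes in the RNA count tables, 88 matched by symbol after 8 pseudogene names were left out. A gene was kept where it reached 0.5 CPM (reads scaled to a common total of counted reads per library) in 6 or more libraries of a table, and 75 of the 88 did so in both tables, the same 75 in each. These 75 are called members here: 34 of 38 matched genes of complex I, 4 of 4 of complex II, 8 of 8 of complex III, 12 of 21 of complex IV and 17 of 17 of ATP synthase. Ndufa4 and its paralog Ndufa4l2 were counted with complex IV, in which the Ndufa4 protein is now placed. Symbols decide membership, so Atp5s, a factor coupled to ATP synthase, and Cox7a2l, a supercomplex factor, are included, while the complex III gene Cyc1 and the complex I gene Ndufab1 are not.

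The libraries came from NeuN-positive nuclei, sorted after paraformaldehyde fixation from the frontal cortex of wild-type Swiss Webster mice. All mice were weaned at postnatal day 25 and then lived either in standard housing (SH) or in environmental enrichment (EE), a larger cage with a wheel, a tube and toys that were swapped regularly. Tissue was taken at 2 months of age. Nuclear RNA was sequenced in 6 EE and 6 SH libraries from females and 6 EE and 6 SH libraries from males, and open chromatin was mapped by ATAC-seq in 3 EE and 3 SH libraries from females and 6 EE and 7 SH libraries from males. Each sex has a table of its own with another run name, and an effect of sex cannot be told apart from one of the run. The labels do not say that libraries of a group came from separate animals, so p-values measure the spread between these libraries, which may be technical.

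The respiratory chain passes electrons from NADH (complex I) and succinate (complex II) through ubiquinone to complex III, cytochrome c and complex IV, where oxygen is reduced. Complexes I, III and IV pump protons across the inner mitochondrial membrane, and ATP synthase uses that gradient to make ATP, the main energy supply of synaptic transmission. Most subunits are encoded in the nucleus and a few in mitochondrial DNA. Nuclear respiratory factor 1 (NRF1), the GA-binding protein of the ETS family (GABPA) and YY1 are known regulators of many of these genes.

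Promoter windows from RefSeq (build GRCm38.p6, 250 bases before to 50 after the start) were found for 62 of the 75 members. On either strand, 10 of 62 windows held the NRF1 core GCATGCGC (16.1%, against 3.7% of 16783 coding gene promoters of the same length and 5.2% of the 10744 whose genes passed the RNA filter). The ETS letters CCGGAAG were in 15 windows (24.2%, against 12.1% and 16.8%), and the YY1 letters AAGATGGC in 8 (12.9%, against 3.3% and 4.4%). Of the 8 windows with the YY1 letters, 7 belonged to the 30 complex I genes with a window. The cyclic AMP response element TGACGTCA was in 4 windows (6.5%, against 2.4% and 3.2%). The SP letters GGGCGG were in 24 (38.7%), below the 47.2% and 62.5% of the same promoter sets, although the median GC content of the members' windows was 57.2%, beside 56.7% for all coding promoters. These are letter matches, given as a description, and overlapping matches of a motif and its reverse were counted as 1 window. The windows were picked in unlike ways: nearest to the deposited gene start for members, first listed per gene for the other sets.

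The NRF1 core occurred in 3 windows of complex I (Ndufa6, Ndufa8, Ndufa11), 1 of complex II (Sdhb), 2 of complex III (Uqcr11, Uqcrc1), 1 of complex IV (Cox6a1) and 3 of ATP synthase (Atp5g2, Atp5k, Atp5l). The 3 sequences below show it in genes of different complexes, chosen after the matches were seen. Each is the 250 bases before the RefSeq start, 5′ to 3′ on the gene's strand, from build GRCm38.p6, with capitals for the searched motifs. Ndufa11 (chr17:56717512-56717761, plus strand) encodes an accessory complex I subunit, Sdhb (chr4:140961021-140961270, plus strand) the iron-sulfur subunit of complex II, and Cox6a1 (chr5:115348959-115349208, minus strand) a small complex IV subunit.
Ndufa11: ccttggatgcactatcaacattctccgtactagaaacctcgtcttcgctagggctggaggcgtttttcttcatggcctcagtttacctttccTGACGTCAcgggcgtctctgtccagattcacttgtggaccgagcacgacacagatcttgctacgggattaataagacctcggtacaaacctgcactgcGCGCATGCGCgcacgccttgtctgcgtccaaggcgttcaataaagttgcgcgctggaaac
Sdhb: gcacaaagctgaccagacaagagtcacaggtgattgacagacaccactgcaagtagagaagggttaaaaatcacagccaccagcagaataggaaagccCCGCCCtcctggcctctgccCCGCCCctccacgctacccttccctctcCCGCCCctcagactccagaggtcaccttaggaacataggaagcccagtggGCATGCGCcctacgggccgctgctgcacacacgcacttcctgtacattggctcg
Cox6a1: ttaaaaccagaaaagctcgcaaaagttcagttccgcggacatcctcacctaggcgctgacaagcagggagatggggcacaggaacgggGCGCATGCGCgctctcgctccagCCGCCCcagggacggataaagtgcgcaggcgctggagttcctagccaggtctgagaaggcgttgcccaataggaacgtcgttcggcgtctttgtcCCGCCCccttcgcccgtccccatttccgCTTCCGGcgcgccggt
In Ndufa11 and Cox6a1 the core was matched on both strands with the 2 matches shifted by 2 bases, beginning at bases -60 and -58 of Ndufa11 and at bases -162 and -160 of Cox6a1, and in Sdhb it was matched once, at base -54. Ndufa11 also held the cyclic AMP response element at base -158, and Cox6a1 the ETS letters, reversed, at base -16. The other capitals in Sdhb and Cox6a1 are reversed SP letters. The members with the NRF1 core had a median log2 fold change of EE over SH of 0.06 in females and -0.03 in males, beside 0.07 and -0.03 for the 52 members with a window that lacked it.

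Depth, as total counts in mega (M), was 10.6 to 15.4 M in female RNA libraries, 10.4 to 14.6 M in male RNA, 19.1 to 26.3 M in female ATAC and 27.7 to 73.8 M in male ATAC. Summed CPM was 6575 to 7969 over 5 neuronal markers (Rbfox3, Snap25, Syt1, Map2, Stmn2). It was 95.9 to 359 over 8 oligodendrocyte markers and 4.01 to 19.2 over the 3 of 6 microglial markers that passed the filter. The 8 astrocyte markers, of which Slc1a2 alone stood at 605 to 1018 CPM in the female table, summed to 831 to 1628. In that table Syt1 made up 3614 to 4392 CPM of the neuronal sum, Rbfox3 1903 to 2265 and Stmn2 80.7 to 91.6. These sums do not correct for gene span, so they are no measure of the purity of the nuclei. No glial or vascular marker was at 0 in all libraries of a table. The mean log2 level of the glial and vascular markers was 1.35 in female SH replicate 2, relative to the female table mean, and -0.51 to 0.56 in the other female libraries. The members' RNA results, overall and by complex, are given with and without that library.

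Levels were compared between genes as CPM per kilobase of gene span (introns included), because reads were counted over whole genes. In SH libraries the members' median was 0.941 CPM per kb in females and 1.13 in males, above the medians of 0.578 and 0.564 over all coding genes tested. Their spans were short, with a median of 7.76 kb against 30.1 kb for the female table's coding genes, so on the plain CPM scale the members' medians (7.12 and 8.63) were below those of all coding genes (13.3 and 12.7). Atp5b, the catalytic beta subunit of ATP synthase, had the highest level per length averaged over both tables (4.54 CPM per kb), followed by Cox8a (4.04), Atp5a1 (3.04), the ATP synthase alpha subunit, and Ndufv1 (2.81), the NADH-binding subunit of complex I. Atp5b stood at 28.2 ± 6.66 CPM (SD, n = 6) in female SH libraries and 36.4 ± 4.05 (n = 6) in male ones. Its neighbours in the order do not separate cleanly, since Cox8a was lower than Atp5b per kb in females (2.61 against 3.96) and higher in males (5.47 against 5.11).

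The lowest members per length were Atp5o (0.0571 CPM per kb), the peripheral stalk subunit of ATP synthase, and Cox7b2 (0.0712), a paralog of the complex IV gene Cox7b. Both have long annotated spans, 247290 bases for Atp5o and 105382 bases for Cox7b2, and their low rank rests on that divisor. Other genes overlapped 97.3% of the Atp5o span, 17.8% on the same strand. Without division by span, Atp5o stood at 11.3 CPM in female SH and 16.9 in male SH libraries. These values were above the members' medians of 7.12 and 8.63. Cox7b2 stood at 8.03 and 6.96 CPM. The next lowest per kb, Ndufa1, had 0.391 CPM per kb. In complex II, Sdha, the catalytic flavoprotein, and Sdhb stood at 1.51 and 1.31 CPM per kb. The membrane anchors Sdhc and Sdhd stood at 0.482 and 0.536, and a link to their role was not tested. In complex III the core protein gene Uqcrc1 was highest (1.67) and Uqcrfs1, the Rieske iron-sulfur protein, lowest (0.605). The order was alike in both tables (Spearman's rho 0.93 over 75 genes, a description). In 61 of 75 members the SH level per kb was higher in the male table, but the tables were scaled separately.

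**Figure D1:**
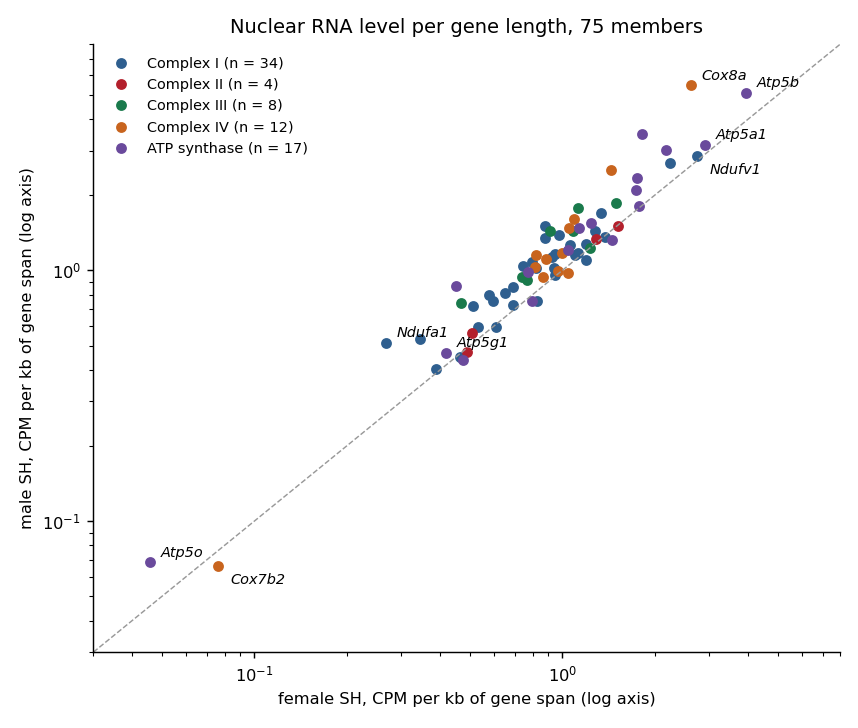
Mean CPM per kb of gene span in SH libraries, female table on the x axis and male table on the y axis (both log axes), 1 point per member, coloured by complex, with a dashed line of equal values. Atp5b and Cox8a lie at the top right. Atp5o and Cox7b2, whose annotated spans are long, lie at the bottom left, and 61 of 75 points lie above the line.

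Several complex IV subunits have paralogs that did not pass the filter. Cox6a1 (1.97 CPM per kb), Cox6b1 (0.997), Cox7a2 (1.35), Cox7a2l (1.01), Cox7b (1.27), Cox8a (4.04) and Ndufa4 (0.922) were all members, while their paralogs Cox6a2, Cox6b2, Cox7a1, Cox8b, Cox8c and Ndufa4l2 did not pass. Cox7a1, known as the form of heart and muscle, reached at most 11 reads in a female library and 7 in a male one, and Cox6a2, also a muscle form, at most 2 and 3 reads. Cox8b had at most 1 and 2 reads, and Cox8c at most 0 and 1. The spans of these paralogs are short, at 1935 bases for Cox7a1, 953 for Cox6a2, 1502 for Cox8b and 1211 for Cox8c. The filter was on CPM without correction for span, so these read counts do not compare with the members' CPM per kb. Among the 3 genes that encode an identical mature subunit c of the ATP synthase rotor, Atp5g3 stood highest (2.59 CPM per kb), before Atp5g2 (0.778) and Atp5g1 (0.444). That order depends on the spans, 2880 bases for Atp5g3 and 9489 for Atp5g2. On the plain CPM scale, Atp5g3 was below Atp5g2 in female SH libraries (6.25 against 7.58) and above it in male ones (8.70 against 7.19).

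A few of the genes that did not pass had no reads at all. Cox4i1, which encodes the main form of the complex IV subunit 4, and Ndufa13, a complex I subunit, had 0 reads in all 24 RNA libraries, as did Ndufb4c. All of each span was overlapped by other genes on the same strand. The overlapping genes, listed whatever their strand, were Gm20388 and Emc8 for Cox4i1 and Yjefn3 and Tssk6 for Ndufa13. Across the table, 400 of 400 coding genes that lie inside another gene's span on the same strand had 0 reads in all 24 libraries, against 8.4% of 675 genes inside a gene of the opposite strand only and 5.7% of 19840 genes inside none. The 0 of these 3 genes was therefore not read as a level. The other form, Cox4i2, reached at most 6 reads in a female library and 4 in a male one. The 13 subunits encoded in mitochondrial DNA were also listed at 0 in every library. Of the 75 members, 65 had no overlap on the same strand, and 3 had more than 30% of their span overlapped: Ndufb9 (62.9%), Ndufb8 (62.0%) and Ndufb2 (37.2%).

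The first comparison asks whether enrichment changed the RNA of these genes in female neurons. No member was called at an adjusted p under 0.05 by edgeR's quasi-likelihood test, where 0% of 15967 genes tested were called, nor by limma voom. DESeq2 gave an adjusted p to 52 of the 75 members and called none of them, with 114 calls over all genes. Of the 75 members, 47 had a higher and 28 a lower fitted level in EE, with a median log2 fold change of 0.03 beside 0.00 over all genes tested. At an unadjusted p under 0.05, 0 members were higher and 2 lower (Ndufb8 and Cox7b2), against 4.27% and 3.97% of all genes. The 95% interval of the log2 fold change lay within ±0.5 for 56 members and within ±1 for 74. In these bulk samples, fewer nuclei of a cell type and less RNA per nucleus cannot be told apart. Without SH replicate 2, 52 members were higher and the median was 0.07, with 0 called. Over all 15755 genes tested in that setting, 86 were called, 8263 were higher and the median was 0.01. The members' medians in complexes I to IV and ATP synthase were then 0.08, 0.03, 0.05, 0.11 and 0.08. Without that library Cox7b2 was at -0.22, Ndufb8 at -0.59, Cox6a1 at 0.30 and Ndufa11 at 0.31 in females, and Atp5b changed sign, to 0.08.

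In males too, no member was called by edgeR's quasi-likelihood test, where 0.0368% of 16286 genes were (6 genes), nor by limma voom. DESeq2, with 63 calls over all genes, gave an adjusted p to 4 members only and called none of these, so it says nothing of the other 71. Here 32 members were higher and 43 lower in EE, with a median of -0.03 beside 0.00 over all genes. Scaling by total count alone moved the whole table, from 48.7% to 35.8% of all genes higher and to an all-gene median of -0.04, and the members with it, to 21 higher and a median of -0.06. Leaving out EE replicate 6 also gave 21. At an unadjusted p under 0.05, 2 members were higher (Cox7b2 and Ndufb3) and 1 was lower (Ndufv2), against 4.27% and 3.58% of all genes. All 75 intervals lay within ±1, and 63 within ±0.5. The direction was the same in both tables for 44 members, 24 higher and 20 lower, or 58.7%, beside 47.7% of 15446 genes tested in both.

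**Figure D2:**
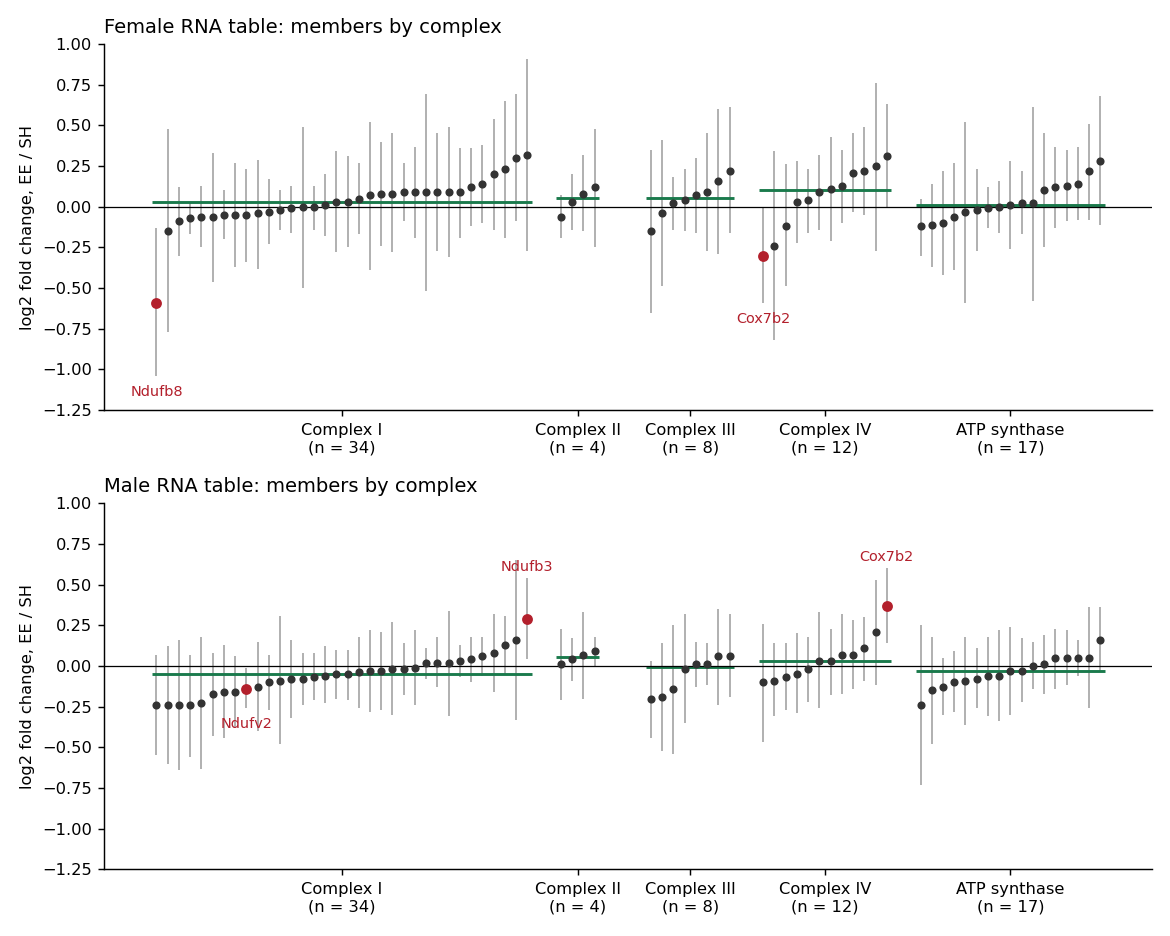
Log2 fold change of EE over SH (y axis) for each member, sorted within its complex, female table above and male table below. Grey bars are 95% intervals, green lines complex medians and red points the members with an unadjusted p under 0.05; most intervals cross 0, and Ndufb8 in females is the lowest point (-0.59).

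Complex I takes up electrons from NADH through its core subunits, around which many accessory subunits are arranged. Its 34 members had a median log2 fold change of 0.03 in females (19 higher) and -0.05 in males (10 higher). Ndufb8, an accessory subunit of the membrane arm (chr19:44548572-44555440, mm10), stood lowest in EE females. Female EE libraries had 1.10, 1.46 and 2.15 CPM (lowest, median, highest) and SH libraries 1.75, 2.36 and 2.84. All 6 EE libraries were below the SH median, though the ranges overlapped. The log2 fold change was -0.59 ± 0.22 (SE, 95% interval -1.04 to -0.13, adjusted p = 0.440, edgeR), and -0.50 to -0.70 when each library was left out in turn. In males it was -0.24 ± 0.17 (adjusted p = 0.772, edgeR), with EE at 2.44, 2.92 and 3.88 CPM and SH at 2.59, 3.28 and 5.12. These values rest on 15 to 35 reads per female library and 24 to 60 per male library.

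Ndufb3, another membrane arm subunit, lay higher in EE males. Male EE libraries had 4.70, 5.05 and 6.08 CPM and SH libraries 3.53, 4.43 and 4.92, so all 6 EE libraries exceeded the SH median. Its log2 fold change was 0.29 ± 0.12 (adjusted p = 0.553, edgeR) in males and 0.08 ± 0.15 in females. Ndufv2, a core subunit with an iron-sulfur cluster, was lower in EE males, at 24.6, 30.0 and 32.7 CPM against 30.9, 32.1 and 34.6 in SH (-0.14 ± 0.06, adjusted p = 0.596, edgeR). The lowest EE library, replicate 5, stood apart from the others. In females Ndufv2 had 26.6, 29.0 and 31.2 CPM in EE and 27.0, 29.3 and 31.3 in SH, groups that coincide. Ndufa11, whose promoter is printed above, had 2.73, 4.88 and 5.61 CPM in female EE and 2.25, 3.95 and 4.38 in SH (0.30 ± 0.19, adjusted p = 0.708, edgeR), and -0.08 ± 0.12 in males. Ndufs4, an accessory subunit known from Leigh syndrome, had the narrowest interval in females, -0.17 to 0.03.

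Complex II also works in the tricarboxylic acid cycle, oxidising succinate to fumarate. All 4 of its genes were higher in EE males (median 0.05) and 3 of 4 in females (median 0.06). Sdha was the only member in either table whose groups did not overlap. Male EE libraries had 44.0, 44.2 and 46.6 CPM and SH libraries 39.0, 42.5 and 43.5. Every EE library was above every SH library, as in 0.368% of all genes of the male table (0.209% had every EE library below), but the difference was small, 0.09 ± 0.05 (95% interval 0.00 to 0.18, adjusted p = 0.646, edgeR). In females, where 0.288% and 0.219% of all genes had EE entirely above or below SH and no member did, Sdha had 35.0, 41.5 and 43.4 CPM in EE and 39.1, 42.0 and 46.1 in SH (-0.06 ± 0.06). Sdhb was at 0.03 ± 0.08 in females and 0.04 ± 0.06 in males, and Sdhc at 0.08 ± 0.11 and 0.01 ± 0.11.

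Complex III hands electrons from ubiquinol to cytochrome c. Its 8 members had medians of 0.05 in females (6 higher) and 0.00 in males (4 higher). Uqcrh, the hinge protein, which binds cytochrome c1, was the furthest from 0 in males, where EE libraries averaged 10.1 ± 1.40 CPM (SD, n = 6) and SH libraries 11.7 ± 2.09 (-0.20 ± 0.11, adjusted p = 0.686, edgeR), and at 0.07 ± 0.11 in females. Uqcr11, a small subunit, was at 0.22 ± 0.18 in females (2.68, 3.39 and 4.03 CPM in EE, 1.92, 2.77 and 3.57 in SH) and 0.06 ± 0.14 in males. The EE and SH ranges overlapped for both genes in both tables. Uqcrfs1 was at 0.16 ± 0.21 and -0.02 ± 0.16, and Uqcrc1 at 0.04 ± 0.09 and 0.01 ± 0.07, in females and males.

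Complex IV reduces oxygen, and its nuclear-encoded subunits surround a core encoded in mitochondrial DNA. The 12 members had medians of 0.10 in females (9 higher) and 0.03 in males (7 higher). Cox7b2 (chr5:71442824-71548205, mm10) was the member with the smallest p in males and the one that differed most between tables. Female EE libraries had 5.20, 6.11 and 8.26 CPM and SH libraries 6.55, 7.90 and 10.0 (-0.30 ± 0.14, 95% interval -0.59 to -0.01, adjusted p = 0.586, edgeR). Male EE libraries had 7.54, 9.06 and 11.0 CPM and SH libraries 5.80, 6.53 and 8.65 (0.37 ± 0.11, 0.14 to 0.60, adjusted p = 0.320, edgeR). In females 2 of 6 EE libraries were above the SH median, and in males 6 of 6. Cox7b2 reads were thinly spread, at 0.0762 CPM per kb in female SH and 0.0661 in male SH libraries over a span of 105382 bases. No ATAC region lay within 1 kb of the Cox7b2 start in either sex, and whether the reads come from a transcript of this subunit was not tested. The paralog Cox7b was higher in EE in both tables, at 0.21 ± 0.12 in females (6.43, 8.42 and 9.44 CPM against 5.95, 7.29 and 7.70) and 0.07 ± 0.10 in males.

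The female minus male difference in log2 fold change was tested over 16807 genes in a joint fit of the 24 RNA libraries. For Cox7b2 it was -0.67 ± 0.18 (95% interval -1.04 to -0.30, adjusted p = 0.183 by edgeR), and -0.76 to -0.60 under the alternatives tried, with a lowest adjusted p of 0.0890. No member was called, where 0.0119% of genes were, and 2 of 75 had an unadjusted p under 0.05 (Cox7b2 and Sdha), against 8.79% of all genes. For Sdha the difference was -0.16 ± 0.07 (adjusted p = 0.544, edgeR).

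Cox6a1, whose promoter is printed above, had 4.36, 5.87 and 7.39 CPM in female EE and 3.65, 4.69 and 5.84 in SH, with 5 of 6 EE libraries above the SH median (0.31 ± 0.15, adjusted p = 0.608, edgeR). Male values were 6.13, 8.00 and 11.5 CPM in EE and 6.82, 8.46 and 9.98 in SH (0.03 ± 0.14). Cox5b, a zinc-binding subunit, was at 0.25 ± 0.25 in females and 0.21 ± 0.16 in males, where EE had 2.71, 2.78 and 3.42 CPM and SH 1.92, 2.51 and 3.11. Cox8a was at 0.22 ± 0.13 in females and -0.09 ± 0.11 in males. The EE and SH ranges overlapped for all 3 genes.

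**Figure D3:**
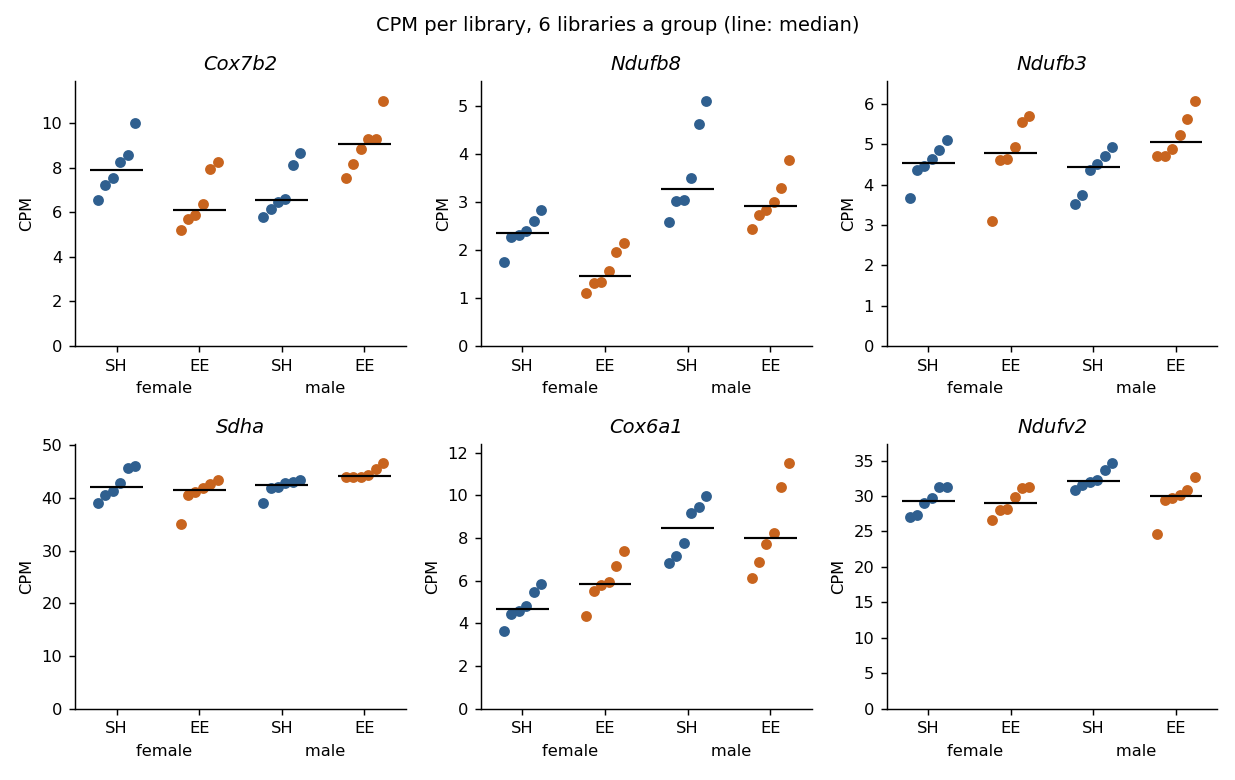
CPM (y axis, from 0) in each RNA library for 6 members, SH in blue and EE in orange, females left and males right in each panel, with a line at the group median. Cox7b2 lies lower in EE females and higher in EE males, Ndufb8 is lowest in EE females, and the male Sdha groups do not overlap.

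ATP synthase is built from a catalytic head, a rotor and a peripheral stalk. Its 17 members had medians of 0.01 in females (10 higher) and -0.03 in males (7 higher). The catalytic subunit Atp5b was at -0.06 ± 0.15 in females, with 22.0, 25.9 and 33.3 CPM in EE and 22.2, 26.3 and 41.0 in SH, and at 0.05 ± 0.08 in males, with 31.9, 37.2 and 44.2 against 29.7, 36.4 and 40.9. The groups overlapped in both tables. Of the subunit c genes, Atp5g1 and Atp5g3 were at 0.28 ± 0.19 and 0.22 ± 0.14 in females (adjusted p = 0.738 and 0.732, edgeR) and 0.05 ± 0.15 and -0.03 ± 0.13 in males, and Atp5g2 was at -0.11 ± 0.12 and -0.06 ± 0.12. Atp5s was at 0.16 ± 0.10 in males, where 8.67, 9.72 and 11.2 CPM in EE stood against 7.40, 8.23 and 10.3 in SH. All 6 EE libraries were above the SH median. Atp5d, a rotor stalk subunit, was at -0.13 ± 0.09 in males and -0.02 ± 0.12 in females. Atpif1, the inhibitor of ATP synthase and no member by its symbol, was at 0.15 ± 0.12 in females and -0.05 ± 0.08 in males.

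Other genes of the pathway, in lists chosen with earlier results of these data known, also had no call in either table. Of 3 genes outside the symbol rule (Cyc1, Ndufab1 and the electron carrier Cycs), 2 had an unadjusted p under 0.05 in females, against 4.27% of all genes higher: Cyc1, the cytochrome c1 of complex III, had 4.81, 7.22 and 8.88 CPM in EE and 4.53, 5.27 and 6.08 in SH (0.40 ± 0.15, adjusted p = 0.450, edgeR), and Ndufab1, the acyl carrier subunit of complex I, was at 0.19 ± 0.09 (adjusted p = 0.592). Without SH replicate 2, Cyc1 was at 0.39 ± 0.16 and Ndufab1 at 0.19 ± 0.10, the latter with an unadjusted edgeR p of 0.0622. In males Cyc1 and Ndufab1 were at -0.12 ± 0.10 and -0.03 ± 0.08. Complex I assembly factors were higher in EE for 11 of 15 genes in both tables (medians 0.06 and 0.04; Nubpl, at 0.14 ± 0.06 in males, had an unadjusted p under 0.05), and those of the other complexes for 17 of 28 in females and 7 of 28 in males (medians 0.03 and -0.03). Of these 28, 2 were higher (Tmem70 and Cox20, at 0.24 ± 0.11 and 0.29 ± 0.14) and 1 lower (Coa6, at -0.56 ± 0.26) at an unadjusted p under 0.05 in females. Mitochondrial ribosomal protein genes were higher in 39 of 75 in females and 29 of 75 in males (medians 0.03 and -0.05).

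Regulators of mitochondrial biogenesis were higher in EE for 10 of 16 genes in both tables, with medians of 0.04 and 0.01. Ppargc1a, a coactivator of this programme, was at 0.12 ± 0.06 in females (58.9, 66.0 and 75.9 CPM in EE, 56.9, 59.1 and 68.7 in SH, adjusted p = 0.647, edgeR) and 0.09 ± 0.05 in males (adjusted p = 0.703). Nrf1 was at -0.02 ± 0.05 and 0.03 ± 0.04, and Gabpa at 0.06 ± 0.09 and 0.02 ± 0.06. Tricarboxylic acid cycle genes were higher in 10 of 17 and 8 of 17 (medians 0.02 and 0.00), and glycolysis genes in 11 of 17 and 6 of 17 (medians 0.07 and -0.04), in females and males. The 17 glycolysis entries come from 16 symbols, as Aldoa has more than 1 entry. Of these regulators and enzymes, Esrrg (0.11 ± 0.05), Pgk1 (0.28 ± 0.11) and Suclg2 (-0.29 ± 0.10) had an unadjusted edgeR p under 0.05 in females. In males only Mdh2 did (-0.17 ± 0.07). The medians of the lists of assembly factors, ribosomal proteins, regulators and metabolic enzymes lay within 0.07 of the median over all genes.

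Averaged over the members, each library had a mean log2 level relative to its table. Female RNA libraries lay at -0.03, 0.01 and 0.07 in EE (lowest, median, highest) and -0.10, -0.03 and 0.06 in SH, and male RNA libraries at -0.15, -0.04 and 0.11 in EE and -0.14, 0.05 and 0.07 in SH. Both pairs of groups overlapped across most of their range. Female SH replicate 2, with the high glial and vascular marker level, had a member level of 0.06, the highest of the SH libraries. Astrocyte markers were higher in EE for 1 of 8 genes in females and 8 of 8 in males, and oligodendrocyte markers likewise for 1 of 8 and 8 of 8. Other lists were less split: oligodendrocyte precursor markers 3 of 5 and 2 of 4, microglial 0 of 3 and 2 of 3, vascular 1 of 5 and 3 of 5. Among neurons it was 1 of 5 and 4 of 5 for general markers, 1 of 4 and 2 of 4 for excitatory and 3 of 3 and 2 of 3 for GABAergic ones. A shift between neuron types was not tested. With the glial and vascular marker level as a covariate, the members' median log2 fold change was 0.04 in females and -0.06 in males, again with 0 called. In that setting 49 of all 15967 genes were called in females and 10 of 16286 in males, with all-gene medians of 0.01 and -0.01.

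**Figure D4:**
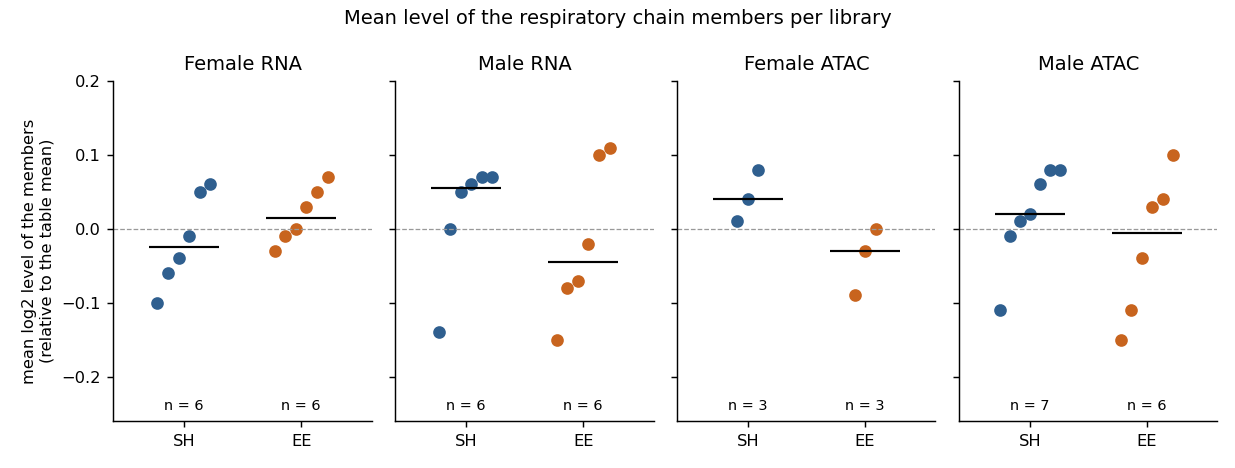
Mean log2 level of the members in each library, relative to the mean of its table (y axis), in the 2 RNA and 2 ATAC tables, SH in blue and EE in orange, with a line at the median of the plotted values. The groups overlap except in female ATAC, where 3 EE libraries at -0.09 to 0.00 lie below 3 SH libraries at 0.01 to 0.08. Regions at coding starts in general were also lower in EE females (median log2 fold change -0.07, beside -0.06 for the members). Their mean level per library was not computed, so the separation is not shown to be particular to the members.

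ATAC-seq counts transposase insertions, which are frequent in open chromatin such as active promoters. Regions within 1 kb of a member's start were found for 74 of 75 members in both tables, 101 regions in females and 78 in males, and a region covered the start itself in 73. The member without a region was Cox7b2 in both. Over the start, the members' regions had a median of 14.8 CPM per kb in female SH libraries (14.2 for all coding genes that passed the RNA filter) and 7.80 in male SH libraries (7.26). Between members, SH accessibility at the start and SH RNA level per kb showed no shared order (Spearman's rho 0.02 in females and -0.06 in males over 73 genes, a description). Accessibility was taken there as CPM of the region, without correction for region length.

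In females, 80 of the 101 regions were lower and 21 higher in EE, with a median log2 fold change of -0.06. Regions at coding gene starts in general moved likewise: their median was -0.07 over 16505 regions, of which 30.6% were higher, while the median over all 164926 regions was -0.01. Scaling by total count alone gave 33 of 101 higher and a median of -0.05, while the share of all regions higher went from 48.3% to 50.6%. No member region was called by edgeR's quasi-likelihood test, where 0.0473% of all regions were, nor by limma voom, nor by DESeq2 among the 85 regions to which it gave an adjusted p. At an unadjusted p under 0.05, 0 were higher and 2 lower, against 4.53% and 3.48% of all regions. All 3 EE libraries were below all 3 SH libraries in 7 of 101 regions, against 6.30% of all regions and 7.31% of those at coding starts, and no member region had EE entirely above, against 6.46% of all regions and 2.16% of those at coding starts. The split leaned on single libraries, with 32 regions higher without EE replicate 2 and 42 without SH replicate 2. By complex the medians were -0.03 (I), -0.09 (II), -0.10 (III), -0.04 (IV) and -0.09 (ATP synthase).

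In males, 60 of 78 regions were lower and 18 higher, with a median of -0.05 beside -0.03 over 13895 regions at coding starts (31.7% higher) and 0.00 over all regions. No member region was called, where 0% of 192834 regions were, nor by DESeq2 or limma voom, and 0 had an unadjusted p under 0.05 in either direction, against 2.61% higher and 1.92% lower of all regions. Leaving out EE replicate 2 gave 28 regions higher. The medians of the complexes lay between -0.07 (IV) and -0.03 (III).

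**Figure D5:**
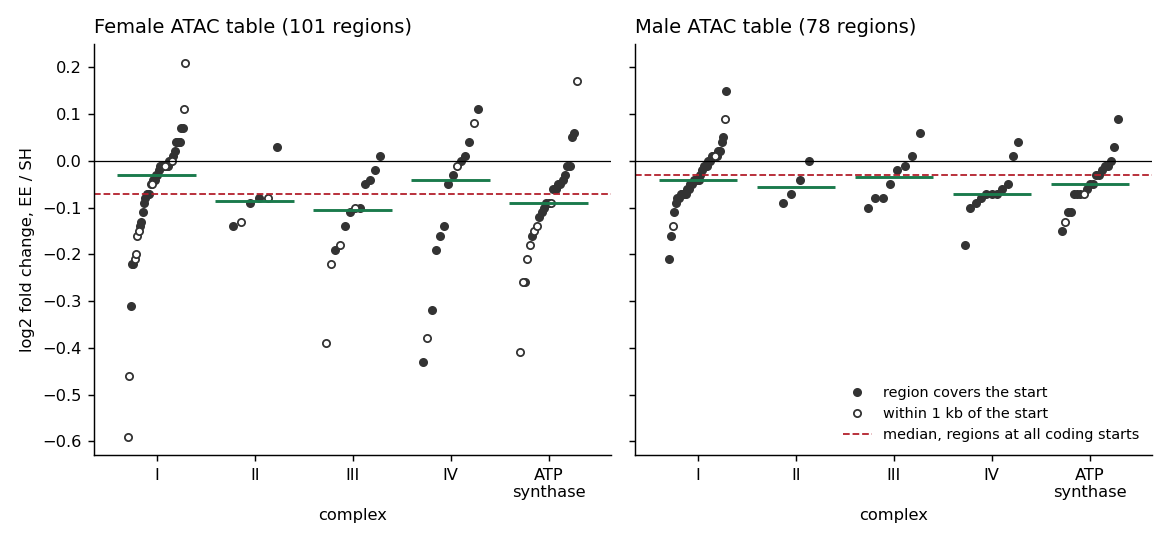
Log2 fold change of EE over SH (y axis) for every region within 1 kb of a member's start, by complex (x axis), female table left and male table right. Filled points cover the start, open points do not, green lines are complex medians and the dashed red line is the median over all coding starts (-0.07 and -0.03); the lowest female point is the Ndufb9 region at -0.59.

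The region with the smallest p was near Ndufb9, a complex I accessory subunit (chr15:58934405-58936294, mm10), 649 bases from its start and also within 1 kb of the start of Tatdn1. Female EE libraries had 7.80, 5.88 and 7.28 CPM and SH libraries 11.1, 9.15 and 11.1. The groups did not overlap, and the log2 fold change was -0.59 ± 0.16 (95% interval -0.90 to -0.27, adjusted p = 0.148, edgeR). The adjoining Ndufb9 region that covers the start was at -0.07 ± 0.11, and the male region over the start, which also overlaps part of the region with the smallest p, was at -0.07 ± 0.07. Ndufb9 RNA was at 0.00 ± 0.24 in females and -0.13 ± 0.13 in males.

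Regions over other starts differed by less. At the start of Ndufa6, a complex I subunit with an NRF1 core in its promoter, female EE libraries had 34.0, 32.5 and 32.5 CPM and SH libraries 32.3, 41.9 and 40.9 (-0.22 ± 0.11, adjusted p = 0.611, edgeR), so 1 SH library was as low as the EE ones. At the Cox8a start, EE had 25.6, 29.8 and 26.5 CPM and SH 28.3, 33.9 and 31.0 in females (-0.19 ± 0.11, adjusted p = 0.702, edgeR). In males EE ran over 11.9, 14.7 and 17.6 CPM (lowest, median, highest) and SH over 13.2, 17.2 and 18.7 (-0.18 ± 0.10, adjusted p = 1.000, edgeR). Cox8a was lower in EE by a like amount in both tables, with overlapping groups. The region over the start of Atp5j2, a subunit of the ATP synthase membrane part, had 11.8, 13.5 and 13.7 CPM in female EE and 16.5, 15.6 and 14.7 in SH, without overlap (-0.26 ± 0.13, adjusted p = 0.626, edgeR), and in males it was at -0.06. Among the other regions with the smallest p of their complex, the female starts of Cox6b1 and Uqcr11 were at -0.32 and -0.19 (0.04 and -0.01 in males). The male starts of Ndufa9, Sdhc, Uqcrb and Atp5a1 were at 0.15, -0.09, -0.10 and -0.11, and the overlapping female regions at -0.03, 0.03, -0.10 and 0.06. Of these 6 genes, Uqcr11 and Uqcrb had the same sign in both tables.

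Promoters shared with a neighbour limit what a region says about a member: 28 of 73 female and 29 of 73 male regions over a start also lay at the start of another coding gene, such as Timm8b beside Sdhd. For Sdhd, EE had 21.4, 21.3 and 21.9 CPM and SH 23.6, 24.8 and 23.1 in females (-0.14 ± 0.11, adjusted p = 0.809, edgeR), with no overlap, and the male region was at -0.04. Across members, log2 fold changes of RNA and of the region over the start had Spearman's rho of -0.13 in females and -0.12 in males over 73 genes, given as a description.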

How the data were processed

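Members and gene lists were chosen with earlier results of these data known. In the deposited RNA tables the values are raw counts, 1 per Ensembl gene and library, and introns were counted with exons. The deposited ATAC tables give raw counts over regions, which differ between the sexes. The authors had not normalized either, as the whole numbers and unequal totals show. The submitters' processing notes name the build mm10 and the tools STAR 2.5.4, MACS2 2.1.1, DiffBind 3.2.2, DESeq2 1.16.1, SAMtools 1.3.1, edgeR and bedtools. The read counter and its strand setting were not given in the sources used here. Table headers are 1 name short, so data columns were matched to names after the feature column. Region coordinates are printed as deposited, since their counting base (0 or 1) is not known.

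The 4 tables had separate fits in edgeR 4.0.16 (R 4.3.3), with TMM scaling and a robust quasi-likelihood test of housing, over genes with at least 0.5 CPM in 6 libraries or regions kept by filterByExpr. P-values were adjusted by Benjamini-Hochberg over all features tested, with calls under 0.05. SE is the size of the log2 fold change over the square root of F. Gene starts came from the coordinates in the deposited female RNA table. Levels and fold changes do not correct for gene overlap. Promoters used 1 RefSeq window per gene, for members the one nearest the deposited start and otherwise the first listed. Some members' windows lay far from that start, such as those of Atp5g2 (1305 bases) and Atp5d (3643 bases). Named members are those with the 2 smallest p per complex and table, the highest and lowest per kb, paralog sets, the ATP synthase inhibitor, and for ATAC the smallest p per complex; Ndufs4, Ndufa6, Ndufb9 RNA and the Cox8a female region were added after their values were seen. Alternatives were DESeq2 1.42.0 (its size factors and its test), limma 3.58.1 voom, total-count scaling, other filters, a glial marker covariate, the replicate number as a block, and each library left out in turn.

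On simulated counts, planted log2 changes of 0.5 and 1 were called in 41.0% and 78.0% of changed genes for female RNA (15967 genes), 61.0% and 85.0% for male RNA (16286), 3.00% and 45.0% of changed regions for female ATAC (164926) and 32.0% and 89.0% for male ATAC (192834). In the female ATAC simulation, 26 of 74 calls fell on unchanged regions. The changed features, 200 in each simulation, were drawn at random from all features tested, so these shares are not those of the members. The members' median SH levels, 7.12 CPM in females and 8.63 in males, were below the 13.3 and 12.7 of all coding genes tested.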

Additional observations from a re-analysis of the deposited data

Results flagged for a closer look

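Within groups of 4 to 10 libraries, 12 of 166 groups of named genes and complex means had a library far from the rest, where chance alone gives about 1 in 20. In female RNA these were EE replicate 1 for Cox8a (6.23 CPM, others 7.41 to 7.98) and for Uqcrc1 (15.9, others 19.4 to 21.9), EE replicate 5 for Ndufa11 (2.73, others 4.43 to 5.61), SH replicate 4 for Ndufa11 (2.25, others 3.67 to 4.38), EE replicate 3 for Ndufb3 (3.10, others 4.61 to 5.71) and EE replicate 6 for Sdha (35.0, others 40.6 to 43.4). All 6 were the lowest of their group.

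In male RNA, EE replicate 5 was low for Ndufv2 (24.6 CPM, others 29.5 to 32.7). SH replicate 3 was low for Sdha (39.0, others 42.0 to 43.5) and for the mean log2 level of all members (-0.14, others 0.00 to 0.07), of complex I (-0.10, others 0.02 to 0.08) and of complex III (-0.13, others 0.03 to 0.09). In male ATAC, SH replicate 6 was low for the complex II regions (-0.09, others 0.00 to 0.07).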

How the results depend on the processing

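No member with an adjusted p was called under any alternative in any table or in the test between tables, and the members' median log2 fold change stayed within 0.02 to 0.07 (female RNA), -0.06 to 0.01 (male RNA), -0.08 to -0.03 (female ATAC) and -0.07 to -0.02 (male ATAC). The number higher in EE moved by over 1.5 times in some settings. With total-count scaling it was 21 of 75 in male RNA, where all genes moved too (35.8% higher against 48.7%), and 33 of 101 in female ATAC (all regions 50.6% against 48.3%). With each library left out in turn it ran from 21 (without EE replicate 6) to 39 in male RNA, from 22 to 42 in female ATAC (42 without SH replicate 2, 32 without EE replicate 2) and from 12 to 28 (without EE replicate 2) in male ATAC, and the cause was not tested. Calls over all genes depended on tool and filter: 114 with DESeq2 and 168 with no low-count filter in female RNA, against 0, and 63 and 136 in male RNA, against 6. Leaving out SH replicate 2 gave 86 calls in female RNA. With limma voom, 0 genes were called in female RNA, 3 in male RNA and 59 regions in female ATAC. DESeq2 called 122 regions in female ATAC and 7 in male ATAC. DESeq2 gave no adjusted p for 23 members in female RNA, 71 in male RNA and 16 regions in female ATAC.

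Replicate numbers are shared between groups, but same-numbered libraries did not all deviate together (correlations 0.026 to 0.265 in female RNA, -0.016 to 0.214 in male RNA, -0.071 to 0.07 in female ATAC and -0.103 to 0.171 in male ATAC). In no table did every pair exceed 0.1, so no pairing was assumed. The numbers used are those of the sample titles. In female RNA the column headers number EE and SH libraries alike, pair by pair. In male RNA most same-numbered libraries have different header numbers, so pairs by header number were not tested there. A library correlated best with its own number in 3 of 6 pairs in both RNA tables, 1 of 3 in female ATAC and 2 of 6 in male ATAC, a hint from the data. The labels do not say that shared numbers mark a pair. With the replicate block, calls over all genes went from 0 to 101 in female RNA and from 6 to 7 in male RNA, and calls over all regions from 78 to 34 in female ATAC and from 0 to 1 in male ATAC. Under this replicate block 0 members were called, with 48 of 75 higher in female RNA, 32 in male RNA, 22 of 101 in female ATAC and 21 of 78 in male ATAC.

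Low counts limit the small genes most: the median half-width of the 95% interval was 0.28 in female RNA and 0.23 in male RNA, widest for Ndufa2 (0.62) and Atp5e (0.49).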
